A study of Mus musculus with 6 samples.

Results

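The DNA methylation system was followed through 9 genes in Ing1-deficient and wild-type mouse embryonic fibroblasts: the writers Dnmt1, Dnmt3a and Dnmt3b, the erasers Tet1, Tet2, Tet3 and Tdg, and the readers Mbd1 and Mbd2. They were chosen by name, and a probe was taken for a gene where its only annotated symbol, updated through the gene ID, was that gene's. In this way 8 of the 9 had a probe, 13 probes in all, out of 18069 genes with such a probe on the array. The 1 probe annotated to Tdg also carries a second symbol, Tdg-ps2, and Tdg was not analysed here.

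The Ing1-deficient group was 3 cultures, C4, C3 and B1, of fibroblasts whose Ing1 locus was disrupted by a gene trap cassette. The wild-type group was 3 cultures, H2, H3 and I2, from embryos described as littermates of the deficient ones. The letters of the culture names do not cross the genotypes, and should a letter mark a litter, litter and genotype cannot be told apart. All cultures were at early passage and each came from 1 embryo, and RNA of each culture was hybridised separately to a 1-colour CodeLink array covering the genome. The study asked which genes depend on Ing1. Signals are given as the authors normalized them, so that the median transcript probe of an array has the value 1, and differences are log2 Ing1-deficient minus wild type.

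Ing1 itself read 1.38 (C4), 0.93 (C3) and 1.39 (B1) in Ing1-deficient cultures, against 11.7 (H2), 11.4 (H3) and 11.1 (I2) in wild-type cultures (probe GE35608, log2 difference -3.23 ± 0.19, SE, limma adjusted p = 0.000286). The position of this probe relative to the cassette is not stated, so it separates the genotypes without showing which transcript remains. All 11 probes of 10 fibroblast markers had good flags on every array. Of these 10 genes, 2 passed as higher in Ing1-deficient cells and 0 as lower, beside 4.94% and 1.63% of all tested probes. They were Thy1 (log2 difference 0.89, limma adjusted p = 0.0492) and Lum (0.84, 0.0369), and the median of the 10 was 0.35. The 2 Pdgfra probes had opposite signs, 0.93 and -0.70, and neither passed. The Y-linked gene Eif2s3y read 16.8 in B1, 16.3 in H2 and 12.1 in H3, against at most 0.408 in the other cultures, so each genotype held both sexes. Probes for 8 macrophage markers summed to 20.02 (C4), 63.9 (C3) and 32.1 (B1) in Ing1-deficient cultures, against 17.3 (H2), 10.5 (H3) and 8.87 (I2) in wild-type cultures, with no overlap between the genotypes. All 6 that could be tested had a positive log2 difference, with a median of 1.61. Mrc1 and Laptm5 entered the test through the Ing1-deficient group alone, so this count, the median and the Mrc1 call are not read as results. Over all tested probes, 4.94% passed as higher in Ing1-deficient cells, and the genotypes did not overlap for 31.4%. C1qa rose by 2.00 ± 0.46, C1qb by 1.85 ± 0.37 and Mrc1, a mannose receptor, by 1.73 ± 0.37 (log2, SE), at limma adjusted p of 0.0393, 0.0308 and 0.0336, and C1qc (adjusted p = 0.0589), Tyrobp (1.05) and Laptm5 (0.10) did not pass. Ptprc, the pan-leukocyte antigen, had no good flag on any array, at 0.122 to 0.437.

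DNA methylation in mammals is the addition of a methyl group to cytosine, mostly where cytosine precedes guanine (CpG). Dnmt1 copies the mark onto the new strand after replication, Dnmt3a and Dnmt3b place it at sites that had none, and the Tet dioxygenases oxidise it so that Tdg and base excision repair can restore plain cytosine. Proteins with a methyl-CpG binding domain, among them Mbd1 and Mbd2, read the mark and bring repressors and histone deacetylases to it. ING1 has been described in the literature to guide GADD45A to chromatin for active demethylation. Fibroblasts are dividing somatic cells, in which many germline promoters are held methylated.

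The starts of the genes described below differ in how much CpG they hold. The windows that follow are RefSeq sequences of assembly GRCm38.p6, 250 bases before to 50 bases after an annotated start, printed 5′ to 3′ on the gene's strand with every CpG in capitals. Shown are the most downstream and the most upstream of the 3 annotated starts of Dnmt1, because the gene is known for a separate oocyte transcript from an upstream exon, the start of Dnmt3b, and the start of Rhox5, a homeobox gene known to be kept silent by promoter methylation in somatic cells.
Dnmt1 downstream start: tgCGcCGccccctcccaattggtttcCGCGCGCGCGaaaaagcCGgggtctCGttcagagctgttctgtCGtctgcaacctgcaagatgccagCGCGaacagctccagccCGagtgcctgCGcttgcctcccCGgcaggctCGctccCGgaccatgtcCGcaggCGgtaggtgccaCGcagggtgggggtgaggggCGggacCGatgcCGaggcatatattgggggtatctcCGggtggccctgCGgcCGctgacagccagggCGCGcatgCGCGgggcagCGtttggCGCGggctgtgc
Dnmt1 upstream start: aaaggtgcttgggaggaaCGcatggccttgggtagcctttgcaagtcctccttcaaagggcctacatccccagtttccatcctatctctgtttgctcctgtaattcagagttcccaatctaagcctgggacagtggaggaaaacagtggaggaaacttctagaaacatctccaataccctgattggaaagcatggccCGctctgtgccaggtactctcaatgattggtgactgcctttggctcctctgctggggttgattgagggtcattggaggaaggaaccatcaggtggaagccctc
Dnmt3b start: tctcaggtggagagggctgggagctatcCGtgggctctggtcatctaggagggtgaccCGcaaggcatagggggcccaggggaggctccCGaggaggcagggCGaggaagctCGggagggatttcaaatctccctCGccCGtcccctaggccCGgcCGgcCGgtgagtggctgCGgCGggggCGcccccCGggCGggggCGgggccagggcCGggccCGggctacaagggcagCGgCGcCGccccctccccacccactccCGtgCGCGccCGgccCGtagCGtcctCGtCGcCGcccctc
Rhox5 start: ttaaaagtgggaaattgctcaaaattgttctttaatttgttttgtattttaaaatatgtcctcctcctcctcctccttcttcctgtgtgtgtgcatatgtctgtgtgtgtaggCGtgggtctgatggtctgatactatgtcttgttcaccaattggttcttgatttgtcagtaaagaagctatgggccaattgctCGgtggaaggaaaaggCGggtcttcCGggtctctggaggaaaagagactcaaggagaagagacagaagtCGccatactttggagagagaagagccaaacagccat
The Dnmt1 windows are chr9:20952574-20952873 and chr9:20959839-20960138, both on the minus strand, and hold 33 and 2 CpG. The Dnmt3b window is chr2:153649199-153649498, plus strand, with 30 CpG, and the Rhox5 window is chrX:37754358-37754657, plus strand, with 5. Over all 32817 windows of this length the median was 7 CpG, and 8.57% held 33 or more. The letters TTTGGCGC, TTTCCCGC, TTTCGCGC and TTTGCCGC, forms of the E2F motif found before S-phase genes, were searched on both strands. The downstream Dnmt1 window held TTTGGCGC on the gene's strand, 34 bases after the start, and TTTCGCGC on the opposite strand, 219 bases before it, without overlap, whereas the other windows printed here held none of the 4 strings. At least 1 of the 4 was present in 2.26% of all windows. These matches describe letters in the windows and were not tied to binding, and the arrays do not show which start a transcript used.

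Of the 13 member probes, 7 probes for 6 genes entered the test, for which all 3 spots of a genotype had to carry a good flag. Values under a floor of 0.57, the 1st percentile of spots with a good flag, were set to it before taking log2. Mbd1 was the 1 member probe that passed an adjusted p of 0.05, and it rose. No member probe passed as lower. Over all 19575 tested probes, 6.57% passed, 4.94% higher and 1.63% lower in Ing1-deficient cells. At an unadjusted p under 0.05 limma gave 3 of the 7 member probes, Mbd1, Dnmt1 and Dnmt3a, and 5137 of all tested probes. The signals of the genotypes did not overlap for 2 of the 7, Mbd1 and Dnmt1, against 31.4% of all tested probes. The difference was positive for 5 of the 7 member probes and its median over the 7 was 0.11, against 0.02 over all tested probes.

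**Figure D1:**
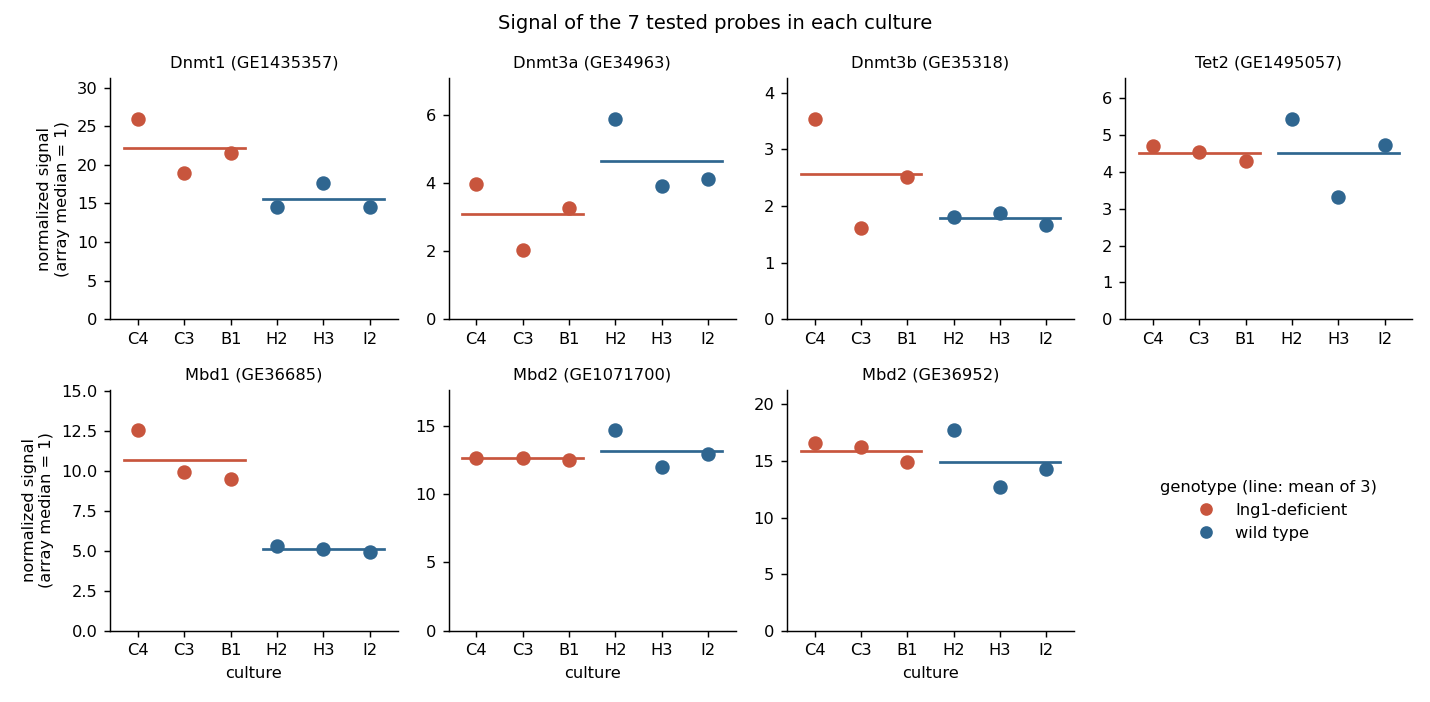
Each panel plots 1 tested probe, with the normalized signal (array median = 1) of each culture on a linear axis from 0, Ing1-deficient cultures on the left and wild-type cultures on the right, and a line at each mean of 3. Mbd1 and Dnmt1 show separate groups, while the Dnmt3a, Dnmt3b, Tet2 and Mbd2 points of the genotypes overlap.

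Dnmt1, the maintenance methyltransferase, was bright and somewhat brighter in Ing1-deficient cells, without passing the test. Probe GE1435357 read 26.0 (C4), 19.0 (C3) and 21.5 (B1) in Ing1-deficient cultures, against 14.6 (H2), 17.7 (H3) and 14.5 (I2) in wild-type cultures. Every Ing1-deficient culture lay above every wild-type culture, and C3 and H3 were close to each other. The means were 22.2 ± 3.56 in Ing1-deficient and 15.6 ± 1.83 in wild-type cells (SD, n = 3 each), a log2 difference of 0.50 ± 0.18 (SE, 95% interval 0.11 to 0.90, limma adjusted p = 0.113). On the linear scale that is a 1.42-fold difference with an interval of 1.08 to 1.86, and the unadjusted p was 0.0186. The log2 difference was 0.37 with normexp background correction, 0.41 with cyclic loess and 0.38 with quantile normalization (unadjusted p = 0.0579 in limma). Leaving out 1 array gave 0.38 without C4 (unadjusted p = 0.0574 in limma) to 0.61 without C3 (0.0132). In RNA from whole cultures, more cells that express a gene and more of its RNA per cell cannot be told apart, here and for every gene below.

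A second Dnmt1 probe, GE35319, was dim and did not enter the test, because each genotype had 1 spot without a good flag. It read 1.72 (C4), 1.98 (C3) and 1.68 (B1) in Ing1-deficient cultures, against 0.301 (H2), 1.47 (H3) and 0.619 (I2) in wild-type cultures. The genotypes did not overlap here either, with H3 again the nearest wild-type culture. Both Dnmt1 probes were thus higher in all 3 Ing1-deficient cultures, but they read the same RNA samples and are not replicates of each other.

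The de novo methyltransferases had differences of opposite sign, and neither passed the test. Dnmt3a (GE34963) read 3.97 (C4), 2.04 (C3) and 3.25 (B1) in Ing1-deficient cultures, against 5.88 (H2), 3.91 (H3) and 4.11 (I2) in wild-type cultures. C3 was the lowest and H2 the highest, and C4 lay above H3, so the groups overlapped. The means were 3.08 ± 0.977 and 4.63 ± 1.09 (SD, n = 3 each) in Ing1-deficient and wild-type cells, and the log2 difference was -0.62 ± 0.26 (SE, 95% interval -1.21 to -0.02, limma adjusted p = 0.179). This is a signal 1.53-fold higher in wild type, at an unadjusted p of 0.0448. The difference was -0.34 without C3 (unadjusted p = 0.175 in limma) and -0.40 with normexp background correction.

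Dnmt3b (GE35318) read 3.55 (C4), 1.61 (C3) and 2.52 (B1) in Ing1-deficient cultures, against 1.80 (H2), 1.88 (H3) and 1.67 (I2) in wild-type cultures. The wild-type cultures lay close together, while the Ing1-deficient cultures spread to both sides of them. The log2 difference of 0.45 ± 0.26 (SE, 95% interval -0.14 to 1.04) had a limma adjusted p of 0.306. It was 0.18 without C4, 0.75 without C3 and 0.20 with normexp background correction. The other Dnmt3b probe, GE1435078, had good flags in C4 and C3 only and read 0.848, 0.738 and 0.245 in C4, C3 and B1, against 0.560, 0.523 and 0.350 in H2, H3 and I2. Dnmt3l, the inactive partner of the de novo enzymes in germ cells, had no good flag on any array, at -0.0997 to 0.353.

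Because Dnmt1 is transcribed mainly in S phase, a list of 25 DNA replication genes was set beside the writers. Of the 20 that could be tested, 9 rose, 0 fell and all 20 had a positive difference, with a median of 0.73, against 4.94% higher, 1.63% lower and a median of 0.02 over all tested probes. Cdc6, Pole and Ccne2 entered the test through the Ing1-deficient group alone, and Cdc6 and Pole are among the 9. The counts and medians of this list, also those by culture, are therefore a description only. Centred on each probe's own mean, the median of these genes was 0.70 (C4), 0.19 (C3) and 0.22 (B1) in Ing1-deficient cultures, against -0.49 (H2), -0.25 (H3) and -0.39 (I2) in wild-type cultures on the log2 scale. Dnmt1 on the same scale was 0.49, 0.04 and 0.22 in C4, C3 and B1, against -0.34, -0.06 and -0.35 in H2, H3 and I2. The Dnmt1 and replication values were highest in C4, and H3 was the wild-type culture nearest to 0 in both. Dnmt3b was 0.77 in C4 but -0.37 in C3, where the replication median was positive. The part of the replication genes' difference in the Dnmt1 difference was not tested.

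**Figure D2:**
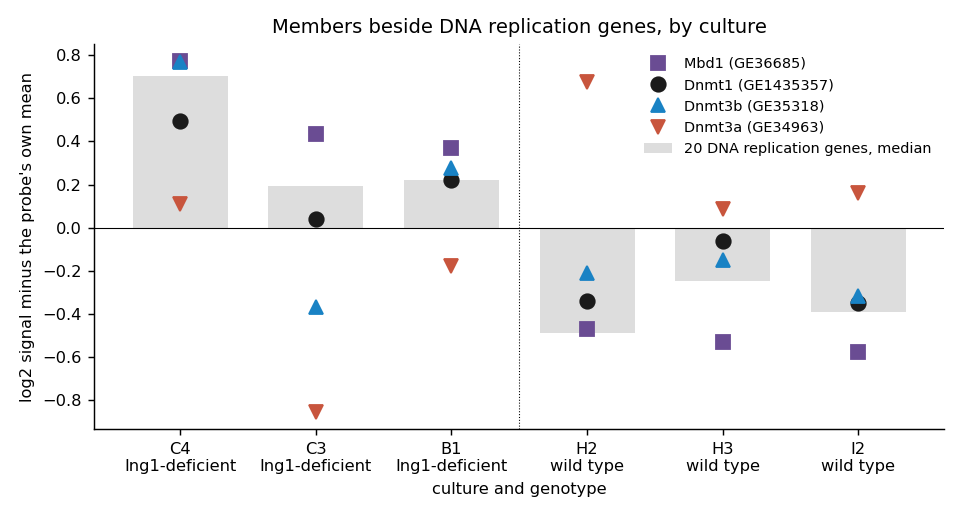
Grey bars give the median of 20 DNA replication genes in each culture, and symbols give Mbd1, Dnmt1, Dnmt3b and Dnmt3a, all as log2 signal minus the probe's own mean over the 6 cultures, with Ing1-deficient cultures left of the dotted line and wild-type cultures right of it. Dnmt1 lies on the same side of 0 as the bar in every culture, with C4 at 0.49 but C3 at 0.04 and H3 at -0.06. Both separate the genotypes, which did not overlap for 31.4% of all tested probes, so the shared side is a description only. Dnmt3a is lowest in C3 (-0.85) and highest in H2 (0.68).

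Among the Tet erasers, only Tet2 was read above background well enough to be tested. Tet2, which oxidises 5-methylcytosine and is the Tet gene best known from blood cells, gave 4.71 (C4), 4.55 (C3) and 4.29 (B1) in Ing1-deficient cultures, against 5.45 (H2), 3.32 (H3) and 4.75 (I2) in wild-type cultures with probe GE1495057. The Ing1-deficient values fell inside the wild-type range. The means were 4.52 ± 0.214 and 4.51 ± 1.08 (SD, n = 3 each) in Ing1-deficient and wild-type cells, with a log2 difference of 0.03 ± 0.20 (SE, limma adjusted p = 0.940). The 95% interval of the difference runs from 0.749-fold to 1.40-fold. A second Tet2 probe, GE1447455, had good flags on 1 Ing1-deficient and 2 wild-type arrays and lay between 0.372 and 0.692 in Ing1-deficient cells, against 0.524 to 0.876 in wild-type cells.

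Tet1 and Tet3 were near the limit of the array. Tet1 (GE1535501), the Tet enzyme known for its high level in embryonic stem cells, read 0.335, 0.212 and 0.776 in C4, C3 and B1, against 0.394, 0.538 and 0.217 in H2, H3 and I2. A good flag was given only to B1 and H3, and the groups overlapped. Tet3 (GE1478066), known for acting on the paternal genome of the zygote, had no good flag on any array, at 0.145 to 0.179 in Ing1-deficient cells and 0.0789 to 0.193 in wild-type cells. For comparison, the 95th percentile of the negative control spots was 0.300 to 0.397 over the 6 arrays, and Tet3 lay below it in every culture, where a difference was not detectable. Tet1 was above the percentile of its own array in B1, H3 and narrowly H2 (0.394 against 0.377). Its difference was not tested.

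**Figure D3:**
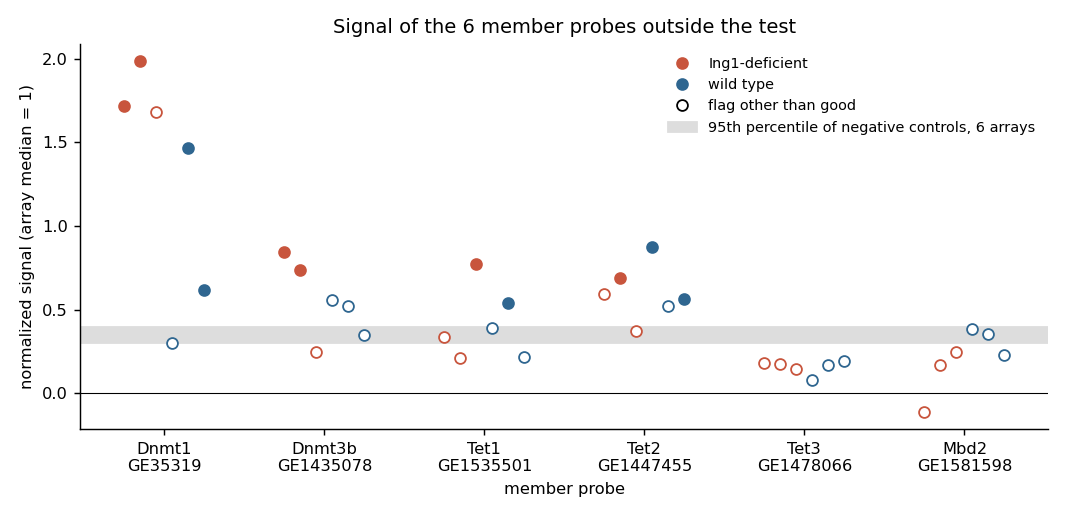
The normalized signal (array median = 1) of the 6 member probes that were not tested is plotted for each culture, Ing1-deficient in red on the left and wild type in blue on the right of each probe, with open circles for spots without a good flag. The grey band spans the 95th percentiles of negative control spots, 0.300 to 0.397, and Tet3 lies below it in all 6 cultures while Dnmt1 probe GE35319 lies above it in 5 and within it in H2, at 0.301.

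Mbd1, the reader that binds methylated CpG and also carries CXXC zinc fingers, rose in Ing1-deficient cells. It read 12.6 (C4), 9.96 (C3) and 9.50 (B1) in Ing1-deficient cultures, against 5.32 (H2), 5.10 (H3) and 4.94 (I2) in wild-type cultures (GE36685). All 3 Ing1-deficient cultures lay well above the wild-type cultures, which differed little from each other. The means were 10.7 ± 1.65 in Ing1-deficient and 5.12 ± 0.194 in wild-type cells (SD, n = 3 each). The log2 difference was 1.05 ± 0.16 (SE, limma adjusted p = 0.0194), a 2.07-fold rise with a 95% interval of 1.61 to 2.67. Among cultures with an Eif2s3y signal, B1 at 9.50 stood against H2 at 5.32 and H3 at 5.10, and among those without it C4 and C3 stood against I2 at 4.94, so the direction was the same in both.

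The size of the Mbd1 difference changed little when 1 array was left out, but the call was lost in 4 of those 6 fits. Leaving out 1 array gave log2 differences of 0.93 to 1.13, with a limma adjusted p of 0.0388 without C3 and 0.0114 without H3, but 0.0675 without C4, 0.0855 without B1, 0.0717 without H2 and 0.105 without I2. The adjusted p was 0.118 with no filter on flags, 0.120 with the methods' t-test and 0.0663 with the Eif2s3y signal as a covariate, where the difference was 1.03. Macrophage marker signal was higher in the Ing1-deficient cultures too, with its highest value in C3 and that of Mbd1 in C4. The part of macrophage signal in the Mbd1 difference was not tested.

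Mbd2, the reader that recruits the NuRD deacetylase complex to methylated DNA, did not pass the test with either of its bright probes. Probe GE1071700 read 12.6, 12.7 and 12.5 in C4, C3 and B1, against 14.7, 12.0 and 12.9 in H2, H3 and I2. The Ing1-deficient values lay within the wild-type range, and the log2 difference was -0.06 ± 0.15 (SE, 95% interval -0.40 to 0.28, limma adjusted p = 0.843). Probe GE36952 read 16.6, 16.2 and 14.9 in C4, C3 and B1, against 17.7, 12.7 and 14.3 in H2, H3 and I2, with a difference of 0.11 ± 0.17 (SE, 95% interval -0.28 to 0.49, limma adjusted p = 0.735). The intervals of both Mbd2 probes end below the 0.68 at which that of Mbd1 begins. The remaining Mbd2 probe, GE1581598, had no good flag on any array, at -0.110 to 0.245 in Ing1-deficient and 0.231 to 0.386 in wild-type cells.

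**Figure D4:**
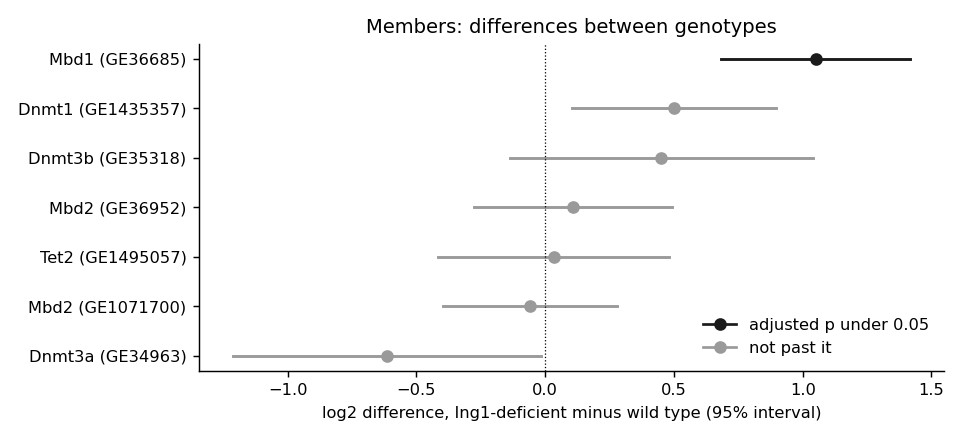
The log2 difference, Ing1-deficient minus wild type, is plotted with its 95% interval for the 7 tested member probes, black where the limma adjusted p was under 0.05 and grey elsewhere. Mbd1 at 1.05 is the black point, Dnmt1 at 0.50 and Dnmt3a at -0.62 have intervals that end at 0.11 and -0.02, and the intervals of Dnmt3b, Tet2 and both Mbd2 probes include 0.

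Mbd3 and Mbd4 carry related domains. Mbd3, a NuRD subunit that in mammals binds methylated DNA poorly, read 13.3, 8.56 and 9.62 in C4, C3 and B1, against 5.32, 6.98 and 6.31 in H2, H3 and I2 (GE36686). Its groups did not overlap, but with a log2 difference of 0.74 ± 0.20 (SE) the limma adjusted p was 0.0617. Mbd4, a glycosylase that removes thymine from mismatches at CpG, had a difference of 0.01 ± 0.15 (SE, 95% interval -0.32 to 0.34, limma adjusted p = 0.980) with GE1422114, and its second probe had only 2 good flags.

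A wider list of 35 genes that help, feed or follow DNA methylation was described in the same way. Of 25 that could be tested, 2 rose (Hells and Apex1), 2 fell (Gadd45a and Gadd45b) and 21 did not pass, beside 4.94% higher and 1.63% lower over all tested probes. The median difference was 0.07, against 0.02 over all tested probes, and 9 of the 25 had groups that did not overlap, close to the 31.4% of all tested probes. The members that changed act at different steps: Hells is a chromatin remodeller that DNA methylation of repeats needs, Apex1 is the endonuclease of base excision repair, and the Gadd45 proteins are stress-induced adaptors also described as cofactors of demethylation.

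The falls of Gadd45a and Gadd45b were the largest differences of the wider list. Gadd45g (GE35441), the other Gadd45 gene of the list, overlapped between the genotypes and did not pass (log2 difference -0.38 ± 0.24, SE, limma adjusted p = 0.353). Gadd45b (GE34064) read 9.76 (C4), 13.8 (C3) and 11.5 (B1) in Ing1-deficient cultures, against 70.9 (H2), 20.8 (H3) and 41.9 (I2) in wild-type cultures. Gadd45a (GE42483) read 18.5 (C4), 17.3 (C3) and 25.9 (B1) in Ing1-deficient cultures, against 66.4 (H2), 31.4 (H3) and 51.4 (I2) in wild-type cultures. In both genes the Ing1-deficient cultures lay below all wild-type cultures, and H2 was the highest and H3 the lowest of the wild type. The log2 differences were -1.77 ± 0.38 (SE, limma adjusted p = 0.0336) for Gadd45b and -1.23 ± 0.28 (SE, limma adjusted p = 0.0377) for Gadd45a. Of the 6 fits that left out 1 array, only the one without H3 kept either call, and without H2 the differences were -1.35 for Gadd45b and -0.99 for Gadd45a. Neither call held with the Eif2s3y covariate (adjusted p = 0.0843 and 0.0963), the methods' t-test (0.211 and 0.208), the floor at 2 times (0.150 and 0.147) or no flag filter (0.276 and 0.271), and that of Gadd45a was also lost with the lower floor (0.0535).

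Hells and Apex1 rose by less. Hells (GE38213) read 2.10, 2.08 and 1.93 in C4, C3 and B1, against 1.45, 1.24 and 1.37 in H2, H3 and I2, a log2 difference of 0.59 ± 0.15 (SE, limma adjusted p = 0.0479). The groups did not overlap, and the call was lost without any 1 of the 6 arrays, at adjusted p of 0.0603 to 0.171, and in 8 of the 12 other alternatives, with a difference of 0.22 under normexp. A second Hells probe, GE111744, read 1.37, 0.702 and 0.906 in C4, C3 and B1 and was not well above background in any wild-type culture. With those spots at the floor of 0.57 the signal was at least 1.67-fold higher in Ing1-deficient cells (limma adjusted p = 0.0854). This probe entered the test through the Ing1-deficient group alone and its wild-type spots shared 1 value, so it is not read as a second result for Hells. Apex1 (GE35075) read 42.5 (C4), 24.4 (C3) and 26.2 (B1) in Ing1-deficient cultures, against 14.6 (H2), 17.4 (H3) and 14.9 (I2) in wild-type cultures. Its groups were apart, with C4 far above the others, and the log2 difference was 0.95 ± 0.22 (SE, limma adjusted p = 0.0420), which passed without H3 but not without any of the other arrays, at up to 0.156, and was lost in 8 of the 12 other alternatives.

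Uhrf1, which binds hemimethylated CpG and brings Dnmt1 to it, did not pass. Its probe GE35818 read 14.4, 7.09 and 9.09 in C4, C3 and B1, against 7.30, 7.87 and 7.12 in H2, H3 and I2, with C4 alone clearly above the wild type (log2 difference 0.40 ± 0.24, SE, limma adjusted p = 0.341). The other probe, GE1511912, gave 11.1, 6.17 and 8.26 in the same Ing1-deficient cultures, against 5.95, 5.91 and 6.19 in wild-type cultures (0.46 ± 0.21, SE, limma adjusted p = 0.213). In both probes C4 was the highest culture and C3 lay within or next to the wild-type values.

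**Figure D5:**
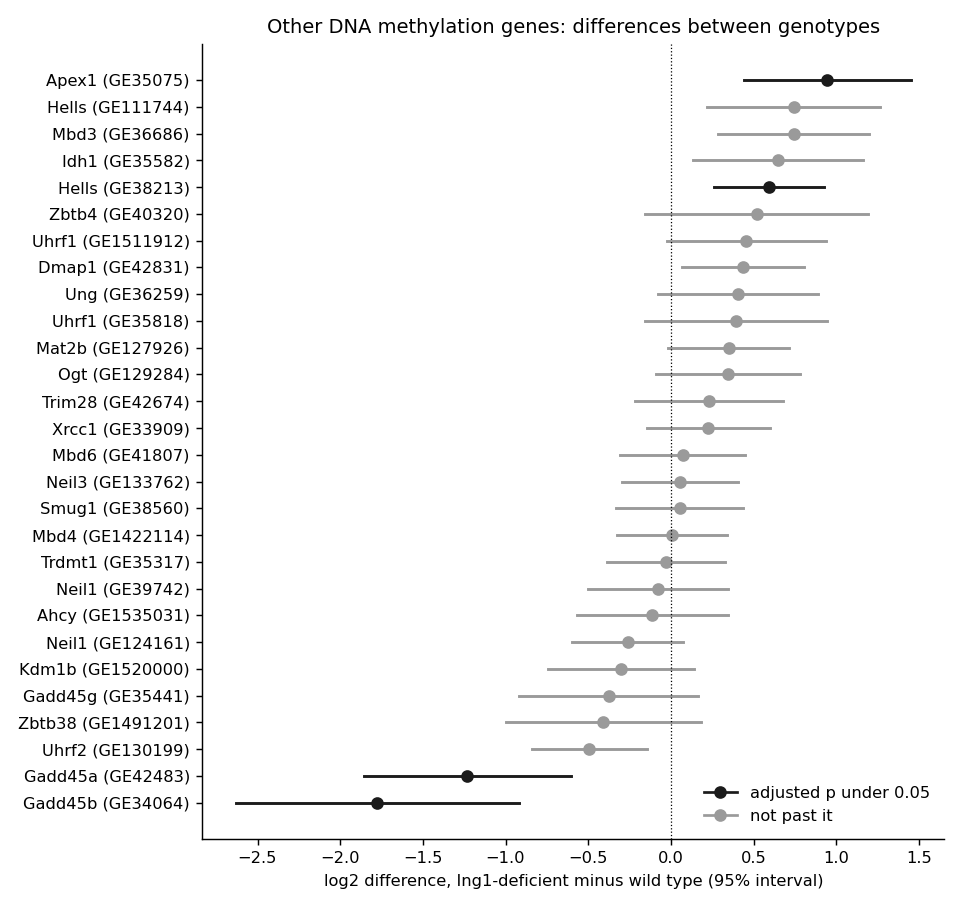
The log2 difference, Ing1-deficient minus wild type, is plotted with its 95% interval for the 28 tested probes of the wider list, ordered from the highest at the top, black where the limma adjusted p was under 0.05. Apex1 (0.95) and 1 of the Hells probes (0.59) are black on the right, Gadd45a (-1.23) and Gadd45b (-1.77) on the left, and the other 24 probes are grey.

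Genes known to be kept silent by promoter methylation in somatic cells were read as a downstream set, since the arrays do not measure methylation itself. Of 20 listed germline genes 17 had a probe, and 11 of those had no good flag on any array. Of the 3 that could be tested, Ddx4 (limma adjusted p = 0.660) and Slc25a31 (limma adjusted p = 0.296) did not pass, and Rhox5 passed the threshold. Ddx4 and Slc25a31 had good flags on every array, also in wild-type cells. Slc25a31 was lower in Ing1-deficient cells, at 1.89 to 2.57 against 2.62 to 2.98, without overlap, as were 31.4% of all tested probes. Mael had a good flag in B1 only, Sycp3 in H3 and I2, and Hormad1 in H3. Mael read higher in Ing1-deficient cultures, Sycp3 lower with no value in H2, and Hormad1 overlapped. These differences were not tested. Rhox5 entered the test through the Ing1-deficient group alone, so neither its call nor a count or median of these genes is read as a result.

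Rhox5 (GE34189), the X-linked gene whose start with 5 CpG is printed above, read 0.948 (C4), 1.01 (C3) and 1.16 (B1) in Ing1-deficient cultures, against 0.505 (H2), 0.421 (H3) and 0.379 (I2) in wild-type cultures. All 3 Ing1-deficient spots had a good flag and none of the wild-type spots was well above background. With the wild-type spots at the floor, the signal was at least 1.82-fold higher in Ing1-deficient cells (log2 difference 0.86 ± 0.15, SE, limma adjusted p = 0.0253). All wild-type spots were set to the same value, so their own spread did not enter this SE and p, which are not read as a test. The measured means were 1.04 ± 0.110 and 0.435 ± 0.064 (SD, n = 3 each) in Ing1-deficient and wild-type cells. The higher reading was present in cultures of both Eif2s3y states. With that signal as a covariate the limma adjusted p was 0.0720, and with normexp the difference was 0.28 (limma adjusted p = 0.0813). With the floor set 2 times as high the log2 difference was 0.01 (limma adjusted p = 0.826), since all spots but B1 then lay under it, and of the 6 fits that left out an array only the one without H3 kept the call, the others giving adjusted p of 0.0516 to 0.118. Pluripotent and germ cell markers summed to 23.0, 22.0 and 21.6 in C4, C3 and B1, against 22.6, 19.8 and 22.2 in H2, H3 and I2. Tdgf1 alone read 11.71 (H3) to 15.55 (H2), so these sums say little about the other markers. Of the 4 tested, 0 passed in limma, beside 6.57% of all tested probes. At an unadjusted p under 0.05 limma gave 0 of the 4, beside 5137 of all 19575 tested probes. With 4 genes, these counts are not read as a result.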

How the data were processed

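Total RNA of 6 mouse embryonic fibroblast cultures was read on 1-colour CodeLink arrays, 1 per culture. The software that quantified the spots was CodeLink Expression Analysis 4.1.0.29054, per the file headers. Linear normalized intensity was deposited. Worked out from the values, local background was subtracted from each spot mean and the result divided by the array's median over transcript probes, 34967 of the 36227 spots. The deposited scanner tables and series value table held the same intensity in 217362 of 217362 cells. The labels' methods name log2 values and a t-test, here the methods' t-test. Good flags covered 55.5% to 62.1% of the transcript probes, and the number of arrays limits the precision.

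Here log2 intensity with a floor of 0.57 (the median over arrays of the 1st percentile of good spots) was fitted with lmFit and eBayes of limma 3.58.1 (R 4.3.3; two-sided), over the 19575 probes whose 3 spots of either genotype were all flagged good, with Benjamini-Hochberg adjustment and a threshold of 0.05. The fit was tested on simulated data. Where all spots of a genotype lacked a good flag, the fold is a lower bound, the brighter group's mean log2 signal against the floor, which lay above each of those spots. In the platform annotation 21615 probes had 1 symbol, 681 had several and 12671 had none, and 21487 of the first kind were updated by gene ID with RefSeq of GRCm38.p6, whose promoter windows are also printed. The files' own genome build is not given in the sources used here.

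The members, the lists and the tests were chosen with earlier results of these data known. Named were all members with every probe, Ing1, the germline genes past the threshold and the 5 genes most like Dnmt1. Of the wider list, the genes past the threshold were named, with Uhrf1, Hells, Dnmt3l, Mbd3 and Mbd4. Ddx4, Slc25a31, Mael, Sycp3, Hormad1, the named fibroblast markers, the macrophage markers and Eif2s3y were added after their values were seen. In the lists, the brightest tested probe stood for a gene. The fit was repeated with normexp (offset 50), with quantile or cyclic loess normalization, with a floor at 0.5 or 2 times, without the flag filter, with good flags required on all 6 arrays, with trended robust variances, with array weights, with the leading letter of the culture as random block (statmod 1.5.0), without each array in turn, and with the methods' t-test. Eif2s3y as a covariate was added after seeing the data. At most 0.0316% of values were equal between any 2 arrays.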

Additional observations from a re-analysis of the deposited data

How the results depend on the processing

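Over all tested probes, 1286 passed an adjusted p of 0.05 (75.2% higher in Ing1-deficient cells). The count was 576 with normexp, 737 with quantile normalization (60.7% higher), 749 with cyclic loess, 191 with the floor at 2 times, 20 with no flag filter and 23 with the Eif2s3y covariate. It was 5 to 2726 when 1 array was left out, lowest without B1 and highest without H3. The methods' t-test gave 7 after adjustment, 3927 unadjusted and 606 unadjusted with its ratio limit. Array weights gave 8160 and the letter block 12901. The block rests on 2 letter pairs with an estimated correlation of -0.89 and is not used for any call. Member probes past the threshold, 1 as reported, numbered 4 with array weights and 4 with the letter block. They numbered 0 with no flag filter (limma, 3 unadjusted), 0 with the covariate (limma, 2 unadjusted), 0 with the methods' t-test (2 unadjusted), and 0 to 1 when 1 array was left out. Ing1 kept its difference of -3.23 but not the call with no flag filter (adjusted p = 0.0524) and the methods' t-test after adjustment (0.0772). Differences near 0 changed sign. Tet2 (GE1495057) was -0.028 with normexp, -0.043 with quantile, -0.0071 with loess, -0.10 with array weights, -0.00065 with the covariate, and -0.17 (without H3) to 0.18 when 1 array was left out. Mbd2 (GE1071700) was -0.13 to 0.020 (without H2) when 1 array was left out. Mbd2 (GE36952) was -0.0028 with quantile and -0.0023 (without H3) to 0.24 when 1 array was left out. Mbd4 was -0.036 with normexp, -0.061 with quantile, -0.026 with loess, -0.054 with array weights, -0.0080 with the covariate, and -0.054 (without H3) to 0.052 when 1 array was left out, also below 0 without C4. In the wider list, rising genes numbered 0 with normexp (5 unadjusted), 0 with quantile (3) and 1 with loess. Falling genes numbered 3 with normexp and 0 with no flag filter (3 unadjusted). The causes were not tested. Dnmt1, Dnmt3a and Mbd1 kept their direction in every alternative. Each slide held 1 array, so no slide block was run. No paired analysis was possible because the genotypes share only 1 replicate number.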

Other observations

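The genes whose pattern over the 6 cultures was most like that of Dnmt1 (GE1435357) were chosen by the root mean square difference of log2 signals, each centred on its own mean, among 13466 tested probes with 1 symbol and a value on every array. They were Kctd12b (0.0205), Cuedc2 (0.0304), Ints1 (0.0442), Fam160b2 (0.0447) and Pus10 (0.0478). Kctd12b read 0.438 in H2 and 0.536 in I2, under the floor of 0.57, so its nearness rests in part on values set to the floor. Cuedc2 read 15.5, 11.7 and 12.7 in C4, C3 and B1, against 8.39, 10.7 and 8.63 in H2, H3 and I2. Like Dnmt1 it was highest in C4, and H3 was its highest wild-type culture. After quantile normalization, Cuedc2 and Fam160b2 were still among the 5 nearest, and the other 3 were not. With 6 points and so many probes, such likeness is a description of these arrays.

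Ratios of members within an array were computed after seeing the data. The log2 ratio of the Dnmt1 signal to the Dnmt3a signal was 2.71 (C4), 3.22 (C3) and 2.73 (B1) in Ing1-deficient cultures, against 1.31 (H2), 2.18 (H3) and 1.82 (I2) in wild-type cultures. The Ing1-deficient cultures lay above all wild-type cultures, with a difference of 1.12, or 1.06 after quantile normalization. The ratio of Mbd1 to Mbd2 was higher in Ing1-deficient cells by 1.11 with GE1071700 and by 0.94 with GE36952, and by the same sizes after quantile normalization. In each of the 3 exact two-sided permutation tests p was 0.1, the smallest that 3 against 3 arrays allow, and 0.1 after Benjamini-Hochberg adjustment over the 3. The pairs were picked for their differences, so these ratios are a description and no test of unequal change.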
